A study of Mus musculus with 9 samples.

Results

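The let-7 passenger strands are the mature miRNAs cut from the 3′ arm of let-7 hairpins. They were taken by name, as every miRNA whose name starts with let-7 and ends with -3p, and 6 of the 358 miRNAs measured met this rule: let-7a-1-3p, let-7b-3p, let-7c-2-3p, let-7d-3p, let-7f-2-3p and let-7i-3p. All 6 had more than 3 reads in all 9 libraries, as did 337 of the 358 miRNAs. The libraries hold small RNA from epididymosomes, the vesicles that the epididymal epithelium sheds into the lumen through which spermatozoa travel. The vesicles came from the caput, corpus and cauda, the proximal, middle and distal segments of the epididymis, of male Swiss mice aged 8 weeks, with 3 libraries per segment. Each library was made from RNA pooled over several animals, so the replicates are pools and not single mice. The segments, and not a treatment or a genotype, are what was compared.

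A miRNA hairpin is trimmed by Drosha and Dicer to a short duplex, from which an Argonaute protein keeps one strand, the guide, and usually discards the other, the passenger. In let-7 hairpins the 5′ arm is the guide. Bases 2 to 8 of a mature miRNA, its seed, pair with target mRNAs. The let-7 guides are known for repressing growth-promoting genes such as Ras and Hmga2 in differentiated tissues, and the discarded strands carry other seeds and so would address other targets.

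The sequences of all 6 passenger strands are shown because they decide which reads can be told apart. They were found by name in RefSeq (build GRCm38.p6) and are written 5′ to 3′ with the seed in capitals.
let-7a-1-3p: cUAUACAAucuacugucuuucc
let-7c-2-3p: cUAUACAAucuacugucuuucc
let-7b-3p: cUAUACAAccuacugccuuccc
let-7f-2-3p: cUAUACAGucuacugucuuuc
let-7d-3p: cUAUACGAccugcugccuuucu
let-7i-3p: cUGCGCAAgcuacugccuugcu
The guide strands of the same hairpins are shown for comparison, again with the seed in capitals.
let-7a-5p: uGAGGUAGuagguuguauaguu
let-7c-5p: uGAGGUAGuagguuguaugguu
let-7b-5p: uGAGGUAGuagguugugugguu
let-7f-5p: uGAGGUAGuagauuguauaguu
let-7d-5p: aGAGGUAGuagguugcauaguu
let-7i-5p: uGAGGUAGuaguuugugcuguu

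The 8 let-7 guides measured here (these 6, let-7e-5p and let-7g-5p) share the 1 seed GAGGUAG, whereas the 6 passenger strands carry 4 seeds. UAUACAA is shared by let-7a-1-3p, let-7b-3p and let-7c-2-3p, and let-7f-2-3p (UAUACAG), let-7d-3p (UAUACGA) and let-7i-3p (UGCGCAA) each have a seed of their own. let-7a-1-3p and let-7c-2-3p are identical over all 22 bases and cannot be told apart by sequencing. let-7f-2-3p, which is 21 bases long, differs from both by the single substitution A8G, counted from 1 at the 5′ end. Whether the counting allowed a mismatch is not given in the sources used here, so reads of let-7a-1-3p, let-7c-2-3p and let-7f-2-3p may be split between names with some uncertainty. let-7b-3p differs from let-7a-1-3p at 3 bases (86.4% identity), none of them in the seed. let-7i-3p is the most distant member, with 66.7% to 72.7% identity to the others.

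The hairpins of let-7d and let-7i are shown because these passenger strands had the highest level and the largest increase from the caput to the corpus. In them the capitals mark the 5′ arm and the 3′ arm.
let-7d hairpin: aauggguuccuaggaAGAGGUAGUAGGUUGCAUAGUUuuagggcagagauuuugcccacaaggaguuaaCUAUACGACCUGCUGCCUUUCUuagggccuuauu
let-7i hairpin: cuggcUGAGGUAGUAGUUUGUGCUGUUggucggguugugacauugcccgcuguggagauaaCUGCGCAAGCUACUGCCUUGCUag

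By the same RefSeq entries, let-7a-1-3p (chr13:48538188-48538209) and let-7d-3p (chr13:48536024-48536045) lie together on the minus strand of chromosome 13. In the GENCODE annotation of GRCm38 both hairpins fall in exons of the long noncoding RNA 6720427I07Rik. let-7c-2-3p (chr15:85706664-85706685) and let-7b-3p (chr15:85707379-85707400) are neighbours on the plus strand of chromosome 15, in exons of the noncoding gene Lncppara. let-7f-2-3p (chrX:151912403-151912423, plus strand) lies in an intron of Huwe1, which encodes a ubiquitin ligase, and let-7i-3p (chr10:122985642-122985663, minus strand) in an exon of the transcribed pseudogene D630033A02Rik.

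Levels are given as CPM, a read count divided by the total read count on miRNAs and put on one fixed scale. The libraries held between 1548581 (corpus replicate 3) and 11306605 (caput replicate 1) such reads, so that 3 reads correspond to 0.265 to 1.94 CPM. The share of reads that went to miR-10a-5p and miR-10b-5p was 50.5% to 71.3% for the caput, 50.3% to 53.2% for the corpus and 33.2% to 34.5% for the cauda. A CPM value falls when another miRNA takes more of the reads, so each comparison of the passenger strands is also given after TMM scaling. This scaling sets libraries to the same level over the bulk of miRNAs. Tests of guides and markers, and the marker sums, are given with library size scaling only. Over the miRNAs tested, TMM scaling moved the median log2 fold change from 0.47 to -0.09 for caput to corpus, from 0.18 to 0.08 for corpus to cauda and from 0.81 to 0.13 for caput to cauda. In RNA from a vesicle preparation, fewer vesicles of a type and less of a miRNA per vesicle cannot be told apart.

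let-7d-3p was the most abundant passenger strand in 9 of 9 libraries. Its level was 76.8, 99.5 and 164 CPM in the 3 caput libraries, 84.0, 137 and 124 CPM in the 3 corpus libraries and 82.5, 91.1 and 175 CPM in those of the cauda. The segment means were 114 ± 45.4, 115 ± 27.5 and 116 ± 51.1 CPM (SD, n = 3 each), and the 3 ranges overlapped throughout. Its mean over the 9 libraries, 115 CPM, ranked 134 of 358 miRNAs. The others followed at means of 40.4 CPM for let-7a-1-3p and let-7c-2-3p, 27.0 CPM for let-7b-3p, 26.5 CPM for let-7i-3p and 12.3 CPM for let-7f-2-3p.

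Because let-7a-1-3p and let-7c-2-3p have the same sequence, they had the same reads in 8 of the 9 libraries and differed by 1 read, 342 against 341, in cauda replicate 3. They are described below as 1 strand, let-7a-1-3p, and both names are counted where members are counted.

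Below let-7d-3p the order depended on the segment. let-7i-3p was in last or next to last place in each caput library and in the second place in each corpus library, and in the third place in each cauda library. The ratio of let-7i-3p to let-7b-3p, in which library scaling cancels, was 0.373, 0.319 and 0.198 for caput vesicles, 2.66, 2.28 and 2.10 for corpus vesicles and 2.65, 2.26 and 1.08 for cauda vesicles. let-7b-3p was thus the more abundant of the pair in all 3 caput libraries, and let-7i-3p in all 6 corpus and cauda libraries. The ratio of let-7i-3p to let-7a-1-3p was above 1 in all 3 corpus libraries (2.28, 2.28 and 1.11) and in no caput or cauda library. let-7a-1-3p and let-7b-3p were not separated in the caput (ratios of 1.54, 0.574 and 0.994) and had 40 reads each in corpus replicate 2, whereas let-7a-1-3p was 2.31 to 4.61 times let-7b-3p in the cauda. let-7f-2-3p was in last place in 6 of the 9 libraries.

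**Figure D1:**
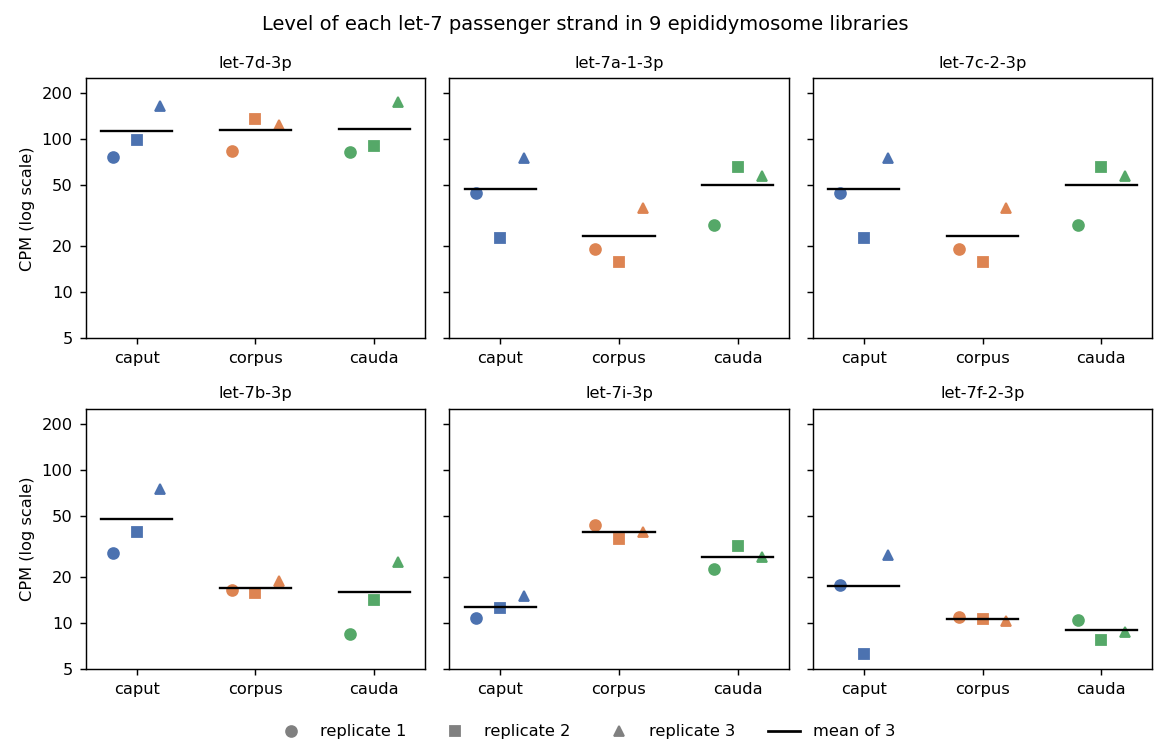
Level of each let-7 passenger strand in CPM (log scale) in the 3 caput, 3 corpus and 3 cauda libraries, 1 point per library with its shape giving the replicate number, and a line at the mean of 3. The segment means of let-7d-3p are 114, 115 and 116 CPM, with single libraries from 76.8 to 175 CPM. The mean of let-7i-3p is lowest in the caput (12.8 CPM) and highest in the corpus (39.6 CPM), and that of let-7b-3p is highest in the caput (48.1 CPM).

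The caput to corpus comparison asks which vesicle miRNAs change as the lumen passes from the proximal to the middle segment. let-7i-3p increased 2.96-fold and was the only passenger strand differentially accumulated, that is, with an adjusted p under 0.05 and a change of at least 2-fold. let-7b-3p, let-7a-1-3p and let-7f-2-3p had lower means in the corpus without passing the test. 1 of the 6 names was called, against 22.4% of the 321 miRNAs tested (19.0% higher and 3.43% lower).

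The caput libraries held let-7i-3p at 10.8, 12.6 and 15.0 CPM and the corpus libraries at 43.8, 35.6 and 39.4 CPM. The lowest corpus library lay above the highest caput library, and the 61 to 271 reads behind the corpus values give a counting error of 6.07% to 12.8%. Its log2 fold change was 1.56 (SE 0.40, limma, Benjamini-Hochberg adjusted p = 0.011), and after TMM scaling it was 1.02 (SE 0.32, limma, adjusted p = 0.034). The call was lost without caput replicate 1 or without corpus replicate 1 (adjusted p = 0.062 in limma in each case, log2 fold changes of 1.46 and 1.49). Of 5 epithelial marker miRNAs (the miR-200 family and miR-141), all of them above 0 in every library, 2 were also called higher: miR-141-3p (log2 fold change 1.88, limma, adjusted p = 7.6e-05) and miR-200a-3p (1.20, limma, adjusted p = 0.02). The other 3 did not pass, with 0.57 for miR-200c-3p, 0.59 for miR-429-3p and -0.67 for miR-200b-3p. The summed level of the 5 was 20990 to 31796 CPM in caput libraries and 71973 to 84209 CPM in corpus libraries, of which miR-141-3p alone made up 59.8% to 86.0% over the 9 libraries. Their part in the result was not tested.

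let-7b-3p measured 28.9, 39.4 and 75.8 CPM in the caput against 16.5, 15.7 and 18.7 CPM in the corpus. The groups did not overlap, and 2 of the 6 names (let-7b-3p and let-7i-3p) were apart in this way, against 34.9% of the miRNAs tested (29.3% higher and 5.61% lower). The log2 fold change of let-7b-3p was -1.34 (SE 0.49, limma, adjusted p = 0.057), just outside the threshold, and it was called after TMM scaling (-1.90, SE 0.38, limma, adjusted p = 0.0045).

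let-7a-1-3p was found at 44.5, 22.6 and 75.4 CPM in caput vesicles, against 19.2, 15.7 and 35.5 CPM in corpus vesicles. These groups overlapped through caput replicate 2, the library in which miR-10a-5p and miR-10b-5p took 71.3% of the reads. The log2 fold change was -0.91 (SE 0.52, limma, adjusted p = 0.22). After TMM scaling the caput libraries stood at 59.0, 47.3 and 64.7 and the corpus libraries at 17.8, 13.7 and 31.4, without overlap, and the strand was called at -1.47 (SE 0.37, limma, adjusted p = 0.013).

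For let-7f-2-3p the caput values were 17.8, 6.28 and 28.0 CPM and the corpus values 11.0, 10.6 and 10.3 CPM. The caput libraries lay on both sides of the corpus libraries, and the log2 fold change of -0.45 did not pass (SE 0.50, limma, adjusted p = 0.53). With TMM scaling it was -0.97 (SE 0.33, limma, adjusted p = 0.043), under the 2-fold limit, and the libraries no longer overlapped. The log2 fold change of let-7d-3p was 0.06 (95% interval -0.89 to 1.01, limma, adjusted p = 0.93), and its sign depended on the scaling, being -0.51 after TMM scaling (limma, adjusted p = 0.28). In all, TMM scaling gave 4 called names of 6 (let-7i-3p higher, and let-7a-1-3p, let-7b-3p and let-7c-2-3p lower), against 28.3% of all miRNAs tested, of which 13.1% were higher and 15.3% lower. It gave 5 names of 6 without overlap, against 47.7%. The median log2 fold change of the 6 names was -0.68 with library size scaling, beside 0.47 over all miRNAs tested, and -1.22 with TMM scaling, beside -0.09. Here let-7a-1-3p and let-7c-2-3p enter the median as 2 names. Counted once, they gave a median of -0.45 with library size scaling, beside 0.47.

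The corpus to cauda comparison, which shares the corpus libraries with the first, called 0 of the 6 passenger strands, against 19.0% of the 342 miRNAs tested (14.0% higher and 4.97% lower). By limma 0 of the 6 also had an unadjusted p under 0.05, and limma-voom called 0 of them. TMM scaling called 0 of them as well, against 26.3% of all tested (16.4% higher and 9.94% lower). let-7a-1-3p was nearest to the threshold, with 27.5, 65.5 and 58.0 CPM in the cauda, and its log2 fold change of 1.06 had a 95% interval from -0.04 to 2.16 (limma, adjusted p = 0.17). Its cauda replicate 1 lay below corpus replicate 3, so the groups overlapped. let-7i-3p stood at 22.5, 32.0 and 27.1 CPM in the cauda libraries and did not pass the test (log2 fold change -0.53, 95% interval -1.39 to 0.32, limma, adjusted p = 0.39). Its cauda libraries lay wholly below its corpus libraries, which makes 1 of 6 names without overlap, against 46.2% of all tested (30.1% higher and 16.1% lower). On the TMM scale it was again the 1 name of 6, against 47.4%. The log2 fold changes of let-7b-3p, let-7d-3p and let-7f-2-3p were -0.20, -0.04 and -0.22, and none of these 3 had groups that were apart.

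Over the whole length, from caput to cauda, 1 passenger strand increased and 1 decreased. The 2 called names of 6 compare with 49.0% of the 349 miRNAs tested, with 38.7% called higher and 10.3% lower. let-7b-3p fell 2.91-fold, to 8.50, 14.2 and 25.1 CPM in the cauda, where the highest library was below the lowest caput library. Its log2 fold change was -1.54 (SE 0.49, limma, adjusted p = 0.015), and -2.19 after TMM scaling (SE 0.38, limma, adjusted p = 0.00077). The call was lost without cauda replicate 1 (-1.19, limma, adjusted p = 0.083), the library in which let-7b-3p had 17 reads.

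let-7i-3p increased 2.04-fold between these ends (log2 fold change 1.03, SE 0.40, limma, adjusted p = 0.041). Its libraries did not overlap in CPM. The call was lost without caput replicate 1 (0.92, limma, adjusted p = 0.16), without any 1 of the 3 corpus or the 3 cauda libraries (0.91 to 1.16, limma, adjusted p of 0.062 to 0.16), and after TMM scaling (0.39, SE 0.32, limma, adjusted p = 0.32). On the TMM scale caput replicate 2, at 26.3, lay above the 3 cauda libraries at 20.8, 26.1 and 21.1. Of the 5 epithelial miRNAs miR-141-3p was called (1.16, limma, adjusted p = 0.00064), and the other 4 were not, with -0.50 for miR-200b-3p and 0.24 to 0.79 for the rest. Their sum, mostly miR-141-3p, was 44552 to 61007 CPM in the cauda.

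let-7b-3p and let-7i-3p were the 2 names of 6 without overlap in CPM, against 54.2% of the miRNAs tested (42.4% higher and 11.7% lower). let-7f-2-3p measured 10.5, 7.78 and 8.82 CPM in the cauda, within the range of the caput, and its log2 fold change was -0.67 (limma, adjusted p = 0.28). With TMM scaling it was called (-1.28, SE 0.33, limma, adjusted p = 0.0078), so that the 2 called names were then let-7b-3p and let-7f-2-3p, against 45.3% of all tested (24.9% higher and 20.3% lower). These were also the 2 names without overlap on the TMM scale, against 58.7%. The log2 fold changes of let-7a-1-3p and let-7d-3p were 0.15 and 0.02 with library size scaling and changed sign with TMM scaling (-0.51 and -0.65), and neither passed the test in limma under either scaling. The median log2 fold change of the 6 names was 0.09, beside 0.81 over all miRNAs tested, and -0.58 with TMM scaling, beside 0.13. With let-7a-1-3p and let-7c-2-3p counted once it was 0.023 with library size scaling, beside 0.815.

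**Figure D2:**
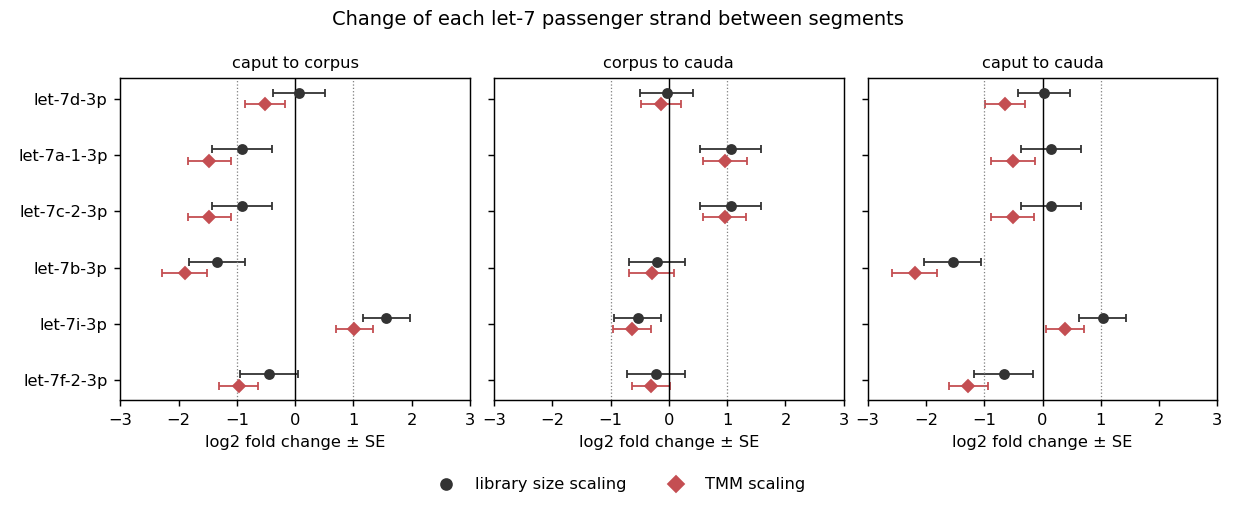
Log2 fold change of each passenger strand (points, with bars of 1 SE from limma) for the 3 comparisons, with library size scaling (black circles) and TMM scaling (red diamonds), and dotted lines at a 2-fold change. From caput to corpus let-7i-3p lies to the right (1.56 and 1.02) and let-7b-3p to the left (-1.34 and -1.90) under both scalings. From caput to cauda the TMM points lie to the left of the library size points for all 6 names. TMM scaling divides all values of a library by the same factor, so this shift is not particular to these names.

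The passenger strands together (with the reads shared by let-7a-1-3p and let-7c-2-3p counted once) summed to 179, 180 and 358 CPM for the caput, 175, 214 and 228 CPM for the corpus and 151, 211 and 294 CPM for the cauda. They made up 0.478% to 1.02% of all let-7 5p and 3p reads, and these ranges overlapped between the segments. let-7d-3p alone held 42.9% to 63.8% of the passenger sum. Within this sum the share of let-7i-3p was 5.73% ± 1.41 for the caput, 19.7% ± 4.71 for the corpus and 13.1% ± 3.36 for the cauda (SD, n = 3 each). The share of let-7b-3p was 19.7% ± 3.09, 8.32% ± 1.07 and 6.96% ± 1.47 in the same order. For both strands each caput library lay outside the range of the other 6 libraries. Both were also the strands apart in CPM between the caput and the other segments, so the shares are no separate evidence. Such a share does not depend on the scaling of the library, but it moves when another strand of the sum changes.

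**Figure D3:**
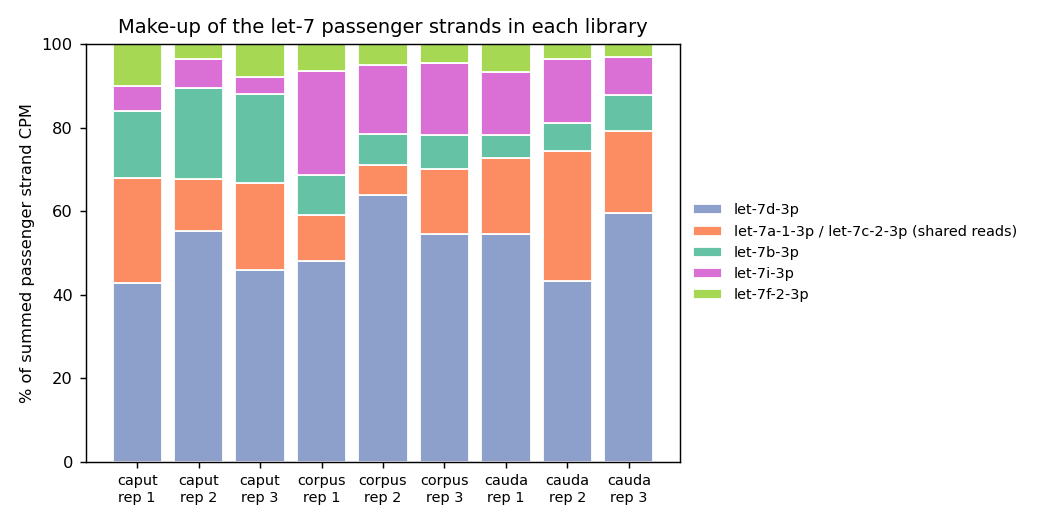
Make-up of the let-7 passenger strands in each of the 9 libraries, as a percentage of their summed CPM, with let-7a-1-3p and let-7c-2-3p drawn once because they share reads. The let-7d-3p share is the largest in each library, the let-7b-3p share is 16.2% to 21.8% in the caput libraries and 5.61% to 9.44% elsewhere, and the let-7i-3p share is 4.19% to 6.97% in the caput libraries and 9.23% to 25.1% elsewhere.

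Each passenger strand was next set against its guide by their ratio within a library, a measure that is independent of scaling. The guide was in excess for all 6 pairs in all 9 libraries, but by amounts that differed widely between hairpins. let-7d-5p was 3.03 to 11.0 times let-7d-3p, so that the passenger strand was 8.35% to 24.8% of the reads of the pair. At the other end let-7f-5p was 401 to 1463 times let-7f-2-3p. The range was 33.2 to 141 for let-7b, 61.8 to 167 for let-7i, 76.1 to 357 for let-7a-1 and 138 to 676 for let-7c-2. let-7a-5p, let-7c-5p and let-7f-5p are each made from more than 1 hairpin, and the passenger strand named here comes from 1 of them (or, for let-7a-1 and let-7c-2, from both), so these 3 ratios are not the strand bias of a single duplex. The ratio of let-7a-5p and let-7c-5p together to the shared passenger reads was 348, 429 and 288 for the caput, 688, 1033 and 372 for the corpus and 470, 215 and 247 for the cauda, where only corpus replicates 1 and 2 stood above all caput and cauda libraries.

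From caput to corpus 0 of the 6 let-7 pairs changed their ratio, against 2.99% of the 67 hairpins with both arms tested. With the replicate number added to the fit as a block, 3 of the 6 pairs and 6 of the 67 hairpins passed. The pairs were let-7a-1 (limma, adjusted p = 0.0054), let-7b (0.043) and let-7f-2 (0.044). Without the replicate number 3 of the 6 (let-7a-1, let-7b and let-7f-2) had an unadjusted p under 0.05 in limma. The share of the 67 at this level was not counted. The let-7a-1 ratio was 94.4, 104 and 78.0 against 252, 357 and 125 (caput first), without overlap, and its log2 change of 1.28 was the highest of the 67 (SE 0.38, limma, adjusted p = 0.10). It passed without corpus replicate 3 (1.69, limma, adjusted p = 0.011) and with only the 6 libraries compared (1.28, limma, adjusted p = 0.047). Of the 67 hairpins, 2 and 3 passed in these settings, in the same order. The let-7b ratio was 57.4, 33.2 and 36.3 against 84.1, 127 and 70.6 (log2 change 1.13, SE 0.43, limma, adjusted p = 0.21), again without overlap. The let-7f-2 ratio was 638, 649 and 401 against 997, 1202 and 1024 (0.96, SE 0.31, limma, adjusted p = 0.11). These 3 pairs of 6 had higher ratios without overlap, against 11.9% of the 67 hairpins (23.9% in either direction). The change of the let-7i ratio was -0.42 (SE 0.36, limma, adjusted p = 0.49), and its guide let-7i-5p itself increased with library size scaling (log2 fold change 1.18, SE 0.35, limma, adjusted p = 0.024).

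From corpus to cauda 0 of the 6 pairs passed, against 5.97% of the 67. By limma 3 of the 6 had an unadjusted p under 0.05, and the share of the 67 at this level was not counted. These 3 include let-7a-1 and let-7c-2, which share their passenger reads. Both passed with the replicate number added to the fit as a block. The let-7a-1 ratio was 140, 76.1 and 87.0 in the cauda (log2 change -1.18, SE 0.38, limma, adjusted p = 0.072), overlapping the corpus through cauda replicate 1. It passed without corpus replicate 3 (-1.60, limma, adjusted p = 0.012) and without cauda replicate 1 (-1.44, limma, adjusted p = 0.039), as did the let-7c-2 ratio (-1.46 in both cases, limma, adjusted p = 0.032 and 0.039). With 1 library left out at a time, 1 to 13 of the 67 hairpins passed. The let-7i ratio was 63.0, 84.8 and 78.3 against 167, 134 and 112 in the cauda, and was the 1 let-7 pair without overlap, against 28.4% of the 67 in either direction and 16.4% higher (log2 change 0.85, SE 0.36, limma, adjusted p = 0.15).

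From caput to cauda 1 of the 6 pairs changed, against 17.9% of the 67, with 8.96% higher and 8.96% lower. This was let-7f-2, whose ratio of 638, 649 and 401 in the caput and 973, 1463 and 981 in the cauda differed 2.01-fold (log2 change 1.00, SE 0.31, limma, adjusted p = 0.039). It was also the 1 let-7 pair without overlap, against 31.3% of the 67 in either direction and 20.9% higher. The call rests on 17 to 52 reads of let-7f-2-3p in the cauda libraries, and it was kept without caput replicate 2 or cauda replicate 3 and lost without any other single library (0.79 to 1.12, limma, adjusted p of 0.051 to 0.13). Without cauda replicate 3 the ratios of let-7b (1.32, limma, adjusted p = 0.022) and let-7d (1.24, limma, adjusted p = 0.027) passed as well. With 1 library left out at a time, 1 to 20 of the 67 hairpins passed. The let-7d ratio was 6.74, 3.03 and 4.09 in the caput and 11.0, 9.69 and 4.24 in the cauda, and its change over all libraries was 0.81 (SE 0.42, limma, adjusted p = 0.18).

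**Figure D4:**
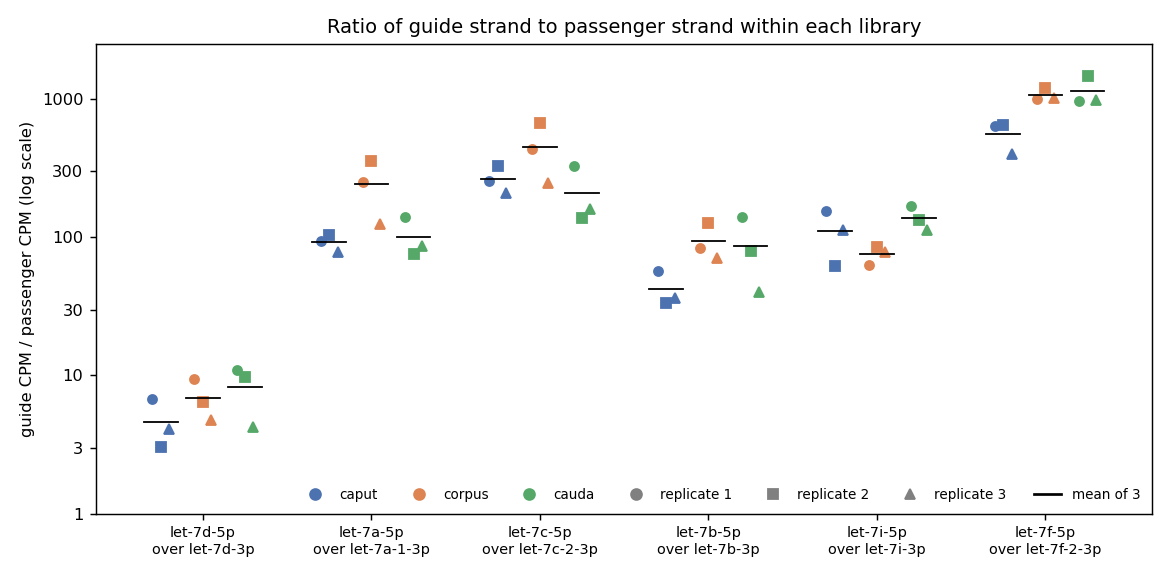
Ratio of guide to passenger CPM (log scale) for the 6 let-7 pairs in each library, coloured by segment, with the shape giving the replicate number and a line at the mean of 3. The ratio is lowest for let-7d (3.03 to 11.0) and highest for let-7f-2 (401 to 1463), and the corpus points of let-7a-1, let-7b and let-7f-2 lie above their caput points.

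The guide family was described for comparison as 10 names, the 8 guides, let-7j and miR-98-5p, which has the same seed as the guides. let-7i-5p was the 1 member of 10 called from caput to corpus, where it was higher, against 22.4% of the miRNAs tested (19.0% higher). It was again the 1 of 10 called, higher, from caput to cauda (log2 fold change 1.49, SE 0.35, limma, adjusted p = 0.0024), against 49.0% (38.7% higher). From corpus to cauda 0 of 10 were called, against 19.0%, and by limma 0 of 10 had an unadjusted p under 0.05. The 3 segments in order held let-7i-5p at 1678, 776 and 1702 CPM, at 2757, 3022 and 3083 CPM and at 3750, 4297 and 3048 CPM. Its TMM-scaled means kept this order (1771, 2643 and 3109) but lay less than 2-fold apart, and its calls are given with library size scaling only. Among the let-7 hairpins, that of let-7i was thus the one whose 2 arms were both called higher from caput to corpus and from caput to cauda with library size scaling. Both arms of some hairpins outside let-7 were also called higher in these comparisons. The median log2 fold changes of the 10 names were 0.51, -0.06 and 0.33 for caput to corpus, corpus to cauda and caput to cauda. let-7b-5p, the guide of the strand that fell, had a caput to cauda log2 fold change of -0.71 (SE 0.36, limma, adjusted p = 0.10).

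Across the 9 libraries the likeness of a passenger strand to its guide varied between the hairpins. Pearson's r of log2(CPM + 1) was 0.75 for let-7i, 0.59 for let-7b, 0.52 for let-7f-2, 0.51 for let-7c-2, 0.34 for let-7a-1 and 0.09 for let-7d. The miRNAs most like let-7i-3p were miR-141-3p (r = 0.957), an epithelial miRNA, and miR-30a-5p (0.911). Those most like let-7b-3p were miR-582-3p (0.891) and miR-467d-3p (0.880), for let-7a-1-3p they were miR-30c-2-3p (0.923) and miR-674-3p (0.866), for let-7d-3p miR-1247-5p (0.895) and miR-434-5p (0.872), and for let-7f-2-3p miR-467e-5p (0.946) and let-7c-5p (0.922). These values describe 9 libraries that share segment, depth and scaling, and the most alike of 358 miRNAs were picked.

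Markers of other cells differed between the segments as well. The smooth muscle miRNAs (miR-143-3p and miR-145a-5p) summed to 50006 to 88769 CPM (caput), 88249 to 121178 CPM (corpus) and 290934 to 353014 CPM (cauda). Of 4 striated muscle miRNAs, 3 were in the table and summed to 52.5 to 184 CPM (caput), 113 to 157 CPM (corpus) and 1249 to 3706 CPM (cauda), with miR-208b-3p at 0 in caput replicate 1. The 3 red blood cell miRNAs summed to 122 to 468, 234 to 657 and 1595 to 2208 CPM in the same order, and the 4 leukocyte miRNAs to 52.9 to 128, 148 to 205 and 174 to 435 CPM. From corpus to cauda only miR-486a-5p of the red blood cell list was called higher (log2 fold change 2.65, limma, adjusted p = 0.0014). Neither miR-144-3p (0.66, limma, adjusted p = 0.52) nor miR-451a (-0.13, limma, adjusted p = 0.9) passed. From caput to cauda all 3 were called higher (1.9 to 3.1). The part of these markers in the caput to cauda changes of let-7b-3p and let-7i-3p was not tested.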

How the data were processed

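Small RNA of caput, corpus and cauda epididymosomes was measured in 3 libraries per segment, and groups were taken from the sample labels. Contaminant reads were removed by the authors, who then counted mature miRNAs with miRDeep2 and divided by library size. Per the submitters' processing notes, CASAVA 1.8.2, Bowtie 1.1.1 and limma were used by the authors. The genome build and miRBase release are not given in the sources used here. The deposited values are CPM, and in each library 100% of them were whole multiples of 1 read (within 0.05 of a read), which gave the reads. p-values measure the spread between pools.

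Tests were made with limma 3.58.1 in R 4.3.3 (lmFit, then eBayes with trend = TRUE) on values of log2(CPM + 1), which understate changes of low miRNAs. All 9 libraries entered the fit, and segment was its single factor. The fit used the whole table. Benjamini-Hochberg adjustment ran over miRNAs whose mean reached 10 CPM in either segment compared. A call needed a 2-fold change besides an adjusted p under 0.05. Arm ratios were tested on log2((5p + 0.5)/(3p + 0.5)), with the same limit on the adjusted p. The 67 hairpins were those whose arms were matched by name and each averaged 10 CPM or more. Outside let-7, 3p names with both a letter and a hairpin number, such as miR-30c-2-3p, were not matched. The 67 therefore leave such hairpins out. TMM scaling, limma-voom, other pseudocounts, filters and subsets of libraries were alternatives. Errors in percent cover counting error only. The tests were also run on simulated counts, with the same spread beyond counting error for all miRNAs and no scaling factor between libraries. They do not cover the spread and scaling differences of these data. Tables were handled with Python 3.11.15 and pandas 2.3.3.

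Named were all let-7 miRNAs, miR-98-5p, the 2 miRNAs most like each member and marker lists. The members and lists were chosen with earlier results of these data known. Sperm and epithelial cell libraries were not analysed here.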

Additional observations from a re-analysis of the deposited data

How the results depend on the processing

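The scaling of the libraries and the single library left out moved the calls of passenger strands most, and these rest on 3 pools per segment and, in the cauda and corpus, on as few as 16 reads. From caput to corpus the 1 called name of 6 (against 22.4% of all miRNAs tested) became 4 with TMM scaling (against 28.3%). It became 4 with library totals without miR-10a-5p and miR-10b-5p (against 26.5%) and 2 with a pseudocount of 10 CPM (against 17.4%). With TMM scaling and no fold threshold, a combination chosen after seeing the data, it became 5 (against 36.8%). From caput to cauda the 2 called names (against 49.0%) became 1 with a pseudocount of 10 CPM (against 37.2%) and 1 with only the 6 libraries compared (against 46.4%). With TMM scaling and no fold threshold 118 miRNAs (50 higher, 68 lower) were called from caput to corpus, in place of 72 (61 higher, 11 lower), and 104 from corpus to cauda in place of 65. TMM scaling with the fold threshold gave 91 (42 higher, 49 lower), 90 (56 higher, 34 lower) and 158 (87 higher, 71 lower) for the 3 comparisons in order, in place of 72 (61 and 11), 65 (48 and 17) and 171 (135 and 36).

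For arm ratios, the 2 hairpins changed from caput to corpus became 1 with a pseudocount of 0.1 CPM and 0 with both arms at 50 CPM or more, and 1 let-7 pair passed, in place of 0, with only the 6 libraries compared. From caput to cauda the 12 hairpins became 5, and the 1 let-7 pair 0, with only the 6 libraries compared and likewise with both arms at 50 CPM or more, a limit that let-7d alone of the let-7 pairs met.

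Leaving out 1 library at a time gave 46 to 102, 32 to 83 and 132 to 202 called miRNAs for caput to corpus, corpus to cauda and caput to cauda, 0 to 2, 0 to 0 and 0 to 3 called passenger strands, 1 to 2, 1 to 13 and 1 to 20 changed hairpins and 0 to 1, 0 to 2 and 0 to 3 changed let-7 pairs.

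Changes near 0 turned their sign. From caput to corpus let-7d-3p went to -0.51 with TMM scaling and -0.31 without the miR-10 reads (-0.18 to 0.36 with 1 library left out). From caput to cauda let-7a-1-3p went to -0.51 and -0.66 (-0.29 to 0.56), let-7c-2-3p to -0.51 and -0.67 (-0.29 to 0.55) and let-7d-3p to -0.65 and -0.80 (-0.31 to 0.32) in the same order. From corpus to cauda let-7d-3p was 0.008 with limma-voom (-0.37 to 0.17) and let-7b-3p ranged from -0.58 to 0.15. The corpus to cauda arm ratio of let-7f-2 was -0.023 with a pseudocount of 5 CPM (-0.14 to 0.14), that of let-7d ranged from -0.042 to 0.64 and that of let-7b from -0.69 to 0.19, and the caput to cauda ratio of let-7a-1 from -0.16 to 0.28. The cause was not tested in any of these cases.

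Of the 9 same-numbered pairs of libraries, 6 deviated together with r over 0.1 (-0.21 to 0.41, against -0.45 to 0.18 for other pairs) and 3 did not, so the numbers were not taken to pair the libraries. Whether same-numbered pools came from the same animals is not given in the sources used here. With the replicate number as a block the called passenger strands were 2, 0 and 1 for the 3 comparisons. The shares called over all miRNAs tested were then 25.9%, 21.3% and 51.6%. let-7b-3p was added from caput to corpus (limma, adjusted p = 0.031) and let-7i-3p lost from caput to cauda (0.051). The changed let-7 pairs were then 3 from caput to corpus (let-7a-1, 0.0054, let-7b, 0.043, and let-7f-2, 0.044) and 2 from corpus to cauda (let-7a-1, 0.0085, and let-7c-2, 0.018), and the changed hairpins 6 and 11. The planned edgeR quasi-likelihood test with TMM scaling was not run, and limma-voom was the one test made on reads recovered from the CPM.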
